A study of Saccharomyces cerevisiae with 4 samples.

Results

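The 10 genes described here encode J-domain chaperones of the budding yeast cytosol, or of membranes whose J-domain faces it: YDJ1, SIS1, APJ1, XDJ1, CAJ1, DJP1, HLJ1, JJJ1, JJJ3 and ZUO1. They were taken by name, each through the 1 array probe annotated to that gene alone, and make up 10 of the 5477 genes with such a probe. All 10 were measured on all 4 arrays and entered the fit of 5403 genes. Total RNA of Saccharomyces cerevisiae was compared on 2-colour arrays. On 2 celastrol arrays, cells given 10 µM celastrol for 1 h, a plant triterpenoid, were set against cells given the same volume of the solvent DMSO. On 2 heat shock arrays, cells at 39 °C for 30 min were set against cells at 30 °C for 30 min. The sources used here name no strain, genotype, medium or growth phase.

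A J-domain protein hands unfolded or assembling clients to an Hsp70 and makes that Hsp70 hydrolyse its ATP, which closes it on the client. The signature of the domain is a short histidine, proline and aspartate motif. Yeast holds many such proteins for few Hsp70s, and they differ in where they sit and which clients they bring. Those of class A carry a zinc-binding region, which those of class B lack, while class C proteins share only the J-domain. Heat shock induces many chaperone genes through the transcription factor Hsf1, and the study asked how the response to celastrol stands beside that to heat.

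Values are log2 ratios of treated over control, with 1 value per gene and array. Per the series text each chip was scaled to its own median signal, so the amount of mRNA per cell was not measured. The deposited values are not centred on 0, with medians over all probes of −0.12 and −0.17 on the celastrol arrays and −0.02 and −0.05 on the heat shock arrays. Treated RNA was in Cy5 on every array, so a dye effect of a probe and the treatment cannot be told apart; in the difference between treatments it cancels only if it was equal on all arrays. The median of all genes tested was −0.11 after celastrol, 0.0048 after heat shock and −0.09 for the difference. Treatment means carry the SD of their 2 arrays, differences carry limma's SE, and a gene was called at a limma adjusted p under 0.05. The 95% intervals given are limma's for 1 gene and are not adjusted for the number of genes.

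None of the 10 J-domain genes was called after celastrol, after heat shock or in the difference between them. After celastrol limma called 0 of 10, while 6.53% of all genes were called. After heat shock it was 0 of 10 against 9.07% of all genes, and for celastrol minus heat shock 0 of 10 against 1.11%. An unadjusted p under 0.05 was reached by 3 of 10 after celastrol (30.8% of all genes), by 5 of 10 after heat shock (30.4%) and by 2 of 10 for the difference (13.7%). Mean log2 ratios of the 10 ran from −0.75 (ZUO1) to 0.56 (XDJ1) after celastrol and from −0.65 (APJ1) to 0.66 (SIS1) after heat shock. The smallest changes called among all genes were 0.78 after celastrol, 0.75 after heat shock and 1.65 for the difference, and every mean and difference of the 10 genes was nearer to 0 than that.

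**Figure D1:**
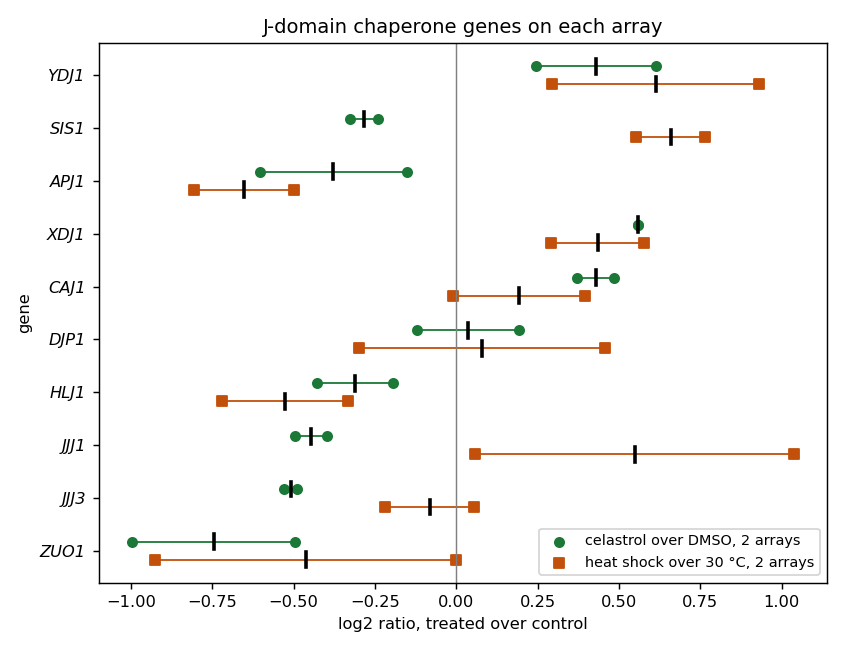
Log2 ratio of treated over control (x axis) of the 10 J-domain chaperone genes (y axis), with 1 point per array, green circles for the 2 celastrol arrays, orange squares for the 2 heat shock arrays, and a black tick at each mean of 2 arrays. SIS1, JJJ1 and JJJ3 have both celastrol arrays to the left of both heat shock arrays, and the SIS1 and JJJ1 arrays lie on opposite sides of 0.

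Signs were mixed within the group under both treatments. After celastrol 3 of the 10 genes lay above 0 on both arrays (29.0% of all genes) and 6 lay below 0 on both (49.6%). After heat shock 4 lay above 0 on both arrays (34.2% of all genes) and 2 below 0 on both (36.7%). YDJ1 and XDJ1 lay above 0 on all 4 arrays, and APJ1 and HLJ1 below 0 on all 4; with each array centred on its median, APJ1 lay at 0.019 on celastrol replicate 2. Median log2 ratios of the 10 were −0.30 after celastrol and 0.14 after heat shock.

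The class A proteins came apart in direction. YDJ1 (YNL064C) encodes the most abundant general Hsp70 partner of the cytosol, which carries a farnesyl anchor and delivers clients to the Ssa Hsp70s. Its log2 ratios were 0.24 and 0.61 on the celastrol arrays, against 0.93 and 0.30 on the heat shock arrays. All 4 values were above 0 and the treatments overlapped. The means were 0.43 ± 0.26 after celastrol (limma adjusted p = 0.253) and 0.61 ± 0.45 after heat shock (adjusted p = 0.141; both SD, n = 2), that is 1.35-fold and 1.53-fold. In rank, 87.3% of genes lay lower after celastrol and 88.8% after heat shock. The difference of −0.18 ± 0.31 (SE) had a 95% interval of −0.98 to 0.61, which spans 0. Without heat shock replicate 2, at 0.93 alone, the heat shock ratio was called, with the spread taken from the celastrol arrays alone. More of all genes were called after heat shock by that fit than by the main fit.

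XDJ1 (YLR090W), whose protein works at the mitochondrial outer membrane, gave the closest celastrol replicates of the group. It stood at 0.56 and 0.56 on the celastrol arrays, against 0.58 and 0.29 on the heat shock arrays. XDJ1 had the highest mean of the 10 after celastrol, 0.56 ± 0.0005 (1.47-fold; 95% interval 1.11 to 1.96; adjusted p = 0.0943), and a mean of 0.44 ± 0.20 after heat shock (adjusted p = 0.149; both SD, n = 2). Of all genes, quantile normalization called 1128 after celastrol, celastrol fitted alone 1479 and array weights 1243, against 353 in the main fit. XDJ1 was called after celastrol with quantile normalization (0.65, adjusted p = 0.0326), with celastrol fitted alone (adjusted p = 0.0388) and with array weights (adjusted p = 0.0400). It was also called without heat shock replicate 1 and without heat shock replicate 2. Those fits leave its celastrol values as they are and take the spread from the celastrol arrays alone. They too called more of all genes after celastrol than the main fit did.

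APJ1 (YNL077W), for a nuclear and cytosolic class A protein with a part in clearing misfolded and SUMO-linked proteins, lay on the other side of 0. Its log2 ratios were −0.60 and −0.15 on the celastrol arrays, against −0.50 and −0.81 on the heat shock arrays. APJ1 had the lowest mean of the 10 after heat shock, −0.65 ± 0.22 (0.637 of its control level; 95% interval 0.454 to 0.893; adjusted p = 0.0992), and −0.38 ± 0.32 after celastrol (adjusted p = 0.248; both SD, n = 2). In rank, 13.7% of genes lay lower after heat shock, and 28.0% after celastrol. The celastrol array at −0.60 lies between the heat shock arrays, and the difference was 0.27 ± 0.27 (SE; adjusted p = 0.698).

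SIS1 (YNL007C), for a class B protein that is essential in yeast and works with Hsp70 on misfolded and aggregated proteins and on prion fibres, lay on opposite sides of 0 under the treatments. It stood at −0.24 and −0.33 on the celastrol arrays, against 0.77 and 0.55 on the heat shock arrays. The treatments did not overlap, and each pair of arrays was close, with an SD of 0.06 after celastrol and 0.15 after heat shock. After celastrol the mean was −0.28 (adjusted p = 0.283), at 0.822 of its control level with a 95% interval of 0.623 to 1.08. After heat shock it was 0.66 (adjusted p = 0.0658), a 1.58-fold ratio with a 95% interval of 1.20 to 2.08. The difference was −0.94 ± 0.22 (SE), with a 95% interval of −1.51 to −0.38 and a limma adjusted p = 0.167, so it was not called over all genes. In the difference 5.15% of genes lay lower than SIS1. After celastrol 35.0% of genes lay lower than SIS1, and after heat shock 90.2% did. Without heat shock replicate 2 the heat shock ratio, then 0.77, was called, with the spread taken from the celastrol arrays alone. That fit called more of all genes after heat shock than the main fit did. Without any 1 array the difference lay between −1.05 and −0.84 and was not called.

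JJJ1 (YNL227C), for a class C protein that helps strip an export factor from new large ribosomal subunits in the cytosol, gave the lowest difference of the 10. It stood at −0.50 and −0.40 on the celastrol arrays, against 1.04 and 0.06 on the heat shock arrays. The heat shock arrays were far apart, with replicate 1 the highest value of any of the 10 genes and replicate 2 near 0. The means were −0.45 ± 0.07 after celastrol (adjusted p = 0.312) and 0.55 ± 0.69 after heat shock (adjusted p = 0.223; both SD, n = 2). The difference was −0.996 ± 0.37 (SE; 95% interval −1.95 to −0.05; adjusted p = 0.341). Heat shock replicate 1 carries much of it: without that array the difference was −0.51, and without heat shock replicate 2 it was −1.49. Both that difference and the heat shock ratio, then 1.04, were called, with the spread taken from the celastrol arrays alone. That spread does not measure the gap between the heat shock arrays, and that fit called more of all genes in both comparisons than the main fit.

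JJJ3 (YJR097W), also known as DPH4, encodes a class C protein needed to make diphthamide, a modified histidine of elongation factor 2. Its log2 ratios were −0.53 and −0.49 on the celastrol arrays, against −0.22 and 0.06 on the heat shock arrays. Both celastrol arrays lay below both heat shock arrays. After celastrol the mean was −0.51 ± 0.03 (0.703 of its control level; adjusted p = 0.108), and after heat shock −0.08 ± 0.19 (adjusted p = 0.760; both SD, n = 2). The difference was −0.43 ± 0.23 (SE; adjusted p = 0.478). The celastrol mean itself was called with array weights (adjusted p = 0.0478) and without heat shock replicate 1. Of all genes, array weights called 1243 after celastrol, against 353 in the main fit. The fit without heat shock replicate 1 also called more of all genes than the main fit.

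With SIS1 and JJJ1, JJJ3 makes 3 of 10 genes whose celastrol arrays both lay below both heat shock arrays, a pattern shown by 28.9% of all genes. The opposite order, both celastrol arrays above both heat shock arrays, was found in 0 of 10, against 18.1% of all genes. The median difference of the 10 was −0.11, close to the −0.09 of all genes tested.

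ZUO1 (YGR285C) encodes zuotin, which sits at the exit of the ribosome in a stable pair with the Hsp70-like Ssz1 and activates the Hsp70 Ssb on nascent chains. It stood at −0.49 and −0.998 on the celastrol arrays, against 0.0008 and −0.92 on the heat shock arrays. Replicates differed widely under heat shock, where 1 array lay next to 0 and the other gave one of the lowest values of the group. ZUO1 had the lowest mean of the 10 after celastrol, −0.75 ± 0.36 (0.596 of its control level; 95% interval 0.366 to 0.971; adjusted p = 0.145), and −0.46 ± 0.65 after heat shock (adjusted p = 0.304; both SD, n = 2). It was called after celastrol when the celastrol arrays were fitted alone (adjusted p = 0.0248). That fit called 1479 of all genes after celastrol, against 353 in the main fit. ZUO1 was also called after celastrol without either heat shock array, with the spread taken from the celastrol arrays alone. Those fits also called more of all genes after celastrol than the main fit.

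The genes of ZUO1's partners SSZ1 and SSB2 fell after heat shock. SSZ1 stood at −0.41 and 0.14 on the celastrol arrays, against −0.99 and −0.98 on the heat shock arrays. It fell after heat shock (−0.98 ± 0.01, adjusted p = 0.0437) and not after celastrol (−0.13 ± 0.39, adjusted p = 0.681; both SD, n = 2). The difference of SSZ1 was 0.85 ± 0.27 (SE; adjusted p = 0.277), which was not called. The heat shock call of SSZ1 was lost under 8 of 13 alternatives, among them centred arrays, array weights, the replicate block and 3 of the 4 fits that left out an array (all but the one without heat shock replicate 2). SSB2, for the ribosome-bound Hsp70, stood at −0.88 and −1.70 on the celastrol arrays, against −2.69 and −1.84 on the heat shock arrays. SSB2 fell after heat shock (−2.26 ± 0.60, adjusted p = 0.0201), a call lost under 5 of 13 alternatives. Its celastrol mean was −1.29 ± 0.58 (both SD, n = 2) and was not called (adjusted p = 0.0672), but it was called under 6 of 13 alternatives, among them quantile normalization (adjusted p = 0.00345), celastrol fitted alone (adjusted p = 0.00669), array weights (adjusted p = 0.0254) and the fits without either heat shock array. Of all genes, quantile normalization called 1128 after celastrol, celastrol fitted alone 1479 and array weights 1243, against 353 in the main fit. The difference of SSB2 was 0.97 ± 0.42 (SE; adjusted p = 0.412). The near-identical SSB1 was not analysed here, because its probe is annotated to a second gene, and SSB2's probe may take up its RNA.

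Of the other class B proteins, HLJ1 (YMR161W), for a protein anchored in the ER membrane with its J-domain in the cytosol and a part in the degradation of ER proteins, was below 0 throughout. Its log2 ratios were −0.43 and −0.19 on the celastrol arrays, against −0.72 and −0.33 on the heat shock arrays. HLJ1 averaged −0.31 ± 0.17 after celastrol (adjusted p = 0.302) and −0.53 ± 0.27 after heat shock (adjusted p = 0.129; both SD, n = 2), and the treatments overlapped. CAJ1 (YER048C), for a protein found at the plasma membrane, stood at 0.37 and 0.48 on the celastrol arrays, against 0.40 and −0.01 on the heat shock arrays. Its mean of 0.43 ± 0.08 after celastrol (adjusted p = 0.175) was 1.35-fold, as YDJ1's was, and its mean after heat shock was 0.19 ± 0.29 (adjusted p = 0.489; both SD, n = 2).

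DJP1 (YIR004W), for a protein that helps bring proteins into peroxisomes and guides mitochondrial precursors, was the gene nearest to 0. It stood at −0.12 and 0.19 on the celastrol arrays, against 0.46 and −0.30 on the heat shock arrays. Each treatment had 1 array on either side of 0. The means were 0.04 ± 0.22 after celastrol and 0.08 ± 0.53 after heat shock (both SD, n = 2), and the 95% interval after heat shock, 0.699- to 1.60-fold, holds sizeable changes in both directions.

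**Figure D2:**
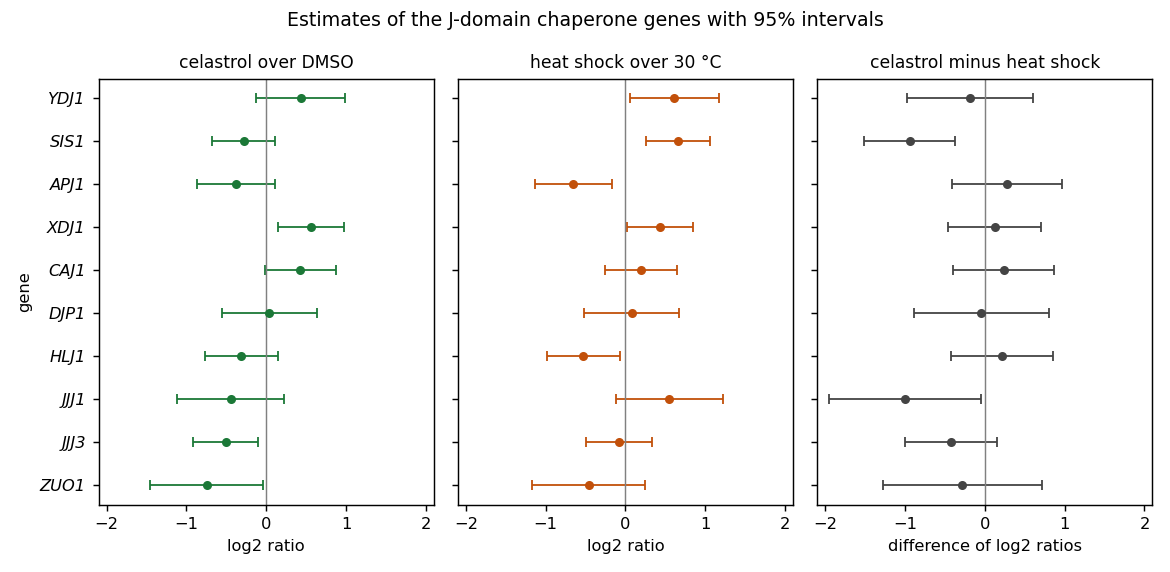
Estimates (points) with 95% intervals (bars, limma, not adjusted for the number of genes) of the 10 J-domain chaperone genes (y axis): the log2 ratio after celastrol, the log2 ratio after heat shock, and celastrol minus heat shock (x axes). In the difference, only the intervals of SIS1 (−1.51 to −0.38) and JJJ1 (−1.95 to −0.05) leave out 0.

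Replicates lay further apart after heat shock than after celastrol in 9 of the 10 genes, APJ1 being the exception. The SD between 2 arrays had a median of 0.12 over the 10 after celastrol (0.0005 to 0.36) and of 0.28 after heat shock (0.15 to 0.69). Over all genes tested the median SD was 0.17 after celastrol and 0.24 after heat shock. On heat shock replicate 1 the median of the 10 was 0.43 and on replicate 2 it was 0.02, with 7 and 5 of the genes above 0. The medians of all genes tested on these arrays were 0.04 and −0.05. Values also spread wider on replicate 1 over all probes, with an SD of 0.93 against 0.58 on replicate 2.

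The other J-domain genes, those of the ER, the mitochondria and single cytosolic tasks, gave no call either. Of 12, all with a probe, 11 were measured on all 4 arrays. Of these, 0 of 11 were called after celastrol (6.53% of all genes), after heat shock (9.07%) or in the difference (1.11%). Their means ran from −0.66 to 0.28 after celastrol and from −0.61 to 0.61 after heat shock, with medians of −0.29 and −0.04. An unadjusted p under 0.05 was reached by 3 of 11 after celastrol (30.8% of all genes), 2 after heat shock (30.4%) and 1 for the difference (13.7%).

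The Hsp70 genes that the J-domain proteins serve ranged far wider. Of 6 tested, 4 rose and 0 fell after celastrol, where 3.85% of all genes rose and 2.68% fell, with a median log2 ratio of 1.33. After heat shock 2 rose and 2 fell, where 4.28% of all genes rose and 4.79% fell, with a median of 0.72. SSA4, for a stress-induced cytosolic Hsp70, stood at 3.69 and 4.59 on the celastrol arrays, against 3.73 and 4.77 on the heat shock arrays, a 17.6-fold and a 19.0-fold rise (adjusted p = 0.00915 and 0.0115). SSA2, the constitutive Hsp70, rose after celastrol (2.88 ± 0.60, adjusted p = 0.00964), as SSA1 did (1.62 ± 0.67, adjusted p = 0.0371); after heat shock they stood at 0.83 ± 0.11 and 0.62 ± 0.07 (all SD, n = 2) and were not called. The differences of SSA2 (2.05 ± 0.34, SE; adjusted p = 0.0765) and SSA1 (0.995 ± 0.36, SE; adjusted p = 0.335) were not called either. That of SSA2 was called with quantile normalization. It was also called without either heat shock array, with the spread taken from the celastrol arrays alone. Each of these settings called more of all genes for the difference than the main fit did. SSA1 and SSA2 are near-identical, so their probes can take up each other's RNA. All calls of Hsp70, exchange factor, other chaperone and sorting factor genes given here were lost when either celastrol array was left out, as were those of every other gene.

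SSA3, the other stress-induced Hsp70 of the cytosol, was the 1 gene in these lists whose difference between treatments was called in the fit of all 4 arrays as deposited. It stood at 0.81 and 1.27 on the celastrol arrays, against 4.53 and 4.71 on the heat shock arrays. It rose 2.06-fold after celastrol (adjusted p = 0.0417) and 24.6-fold after heat shock (adjusted p = 0.00794). The difference was −3.58 ± 0.26 (SE; adjusted p = 0.0156), and its call was lost with the replicate block (adjusted p = 0.0624) and without either celastrol array (adjusted p = 0.240 and 0.254). With quantile normalization the differences of SSA2 (adjusted p = 0.0478) and HSP26 (adjusted p = 0.00758) were called as well. Without heat shock replicate 2 those of SSE2 and HSP104 were called too, with the spread taken from the celastrol arrays alone. Both settings called more of all genes for the difference than the main fit did.

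**Figure D3:**
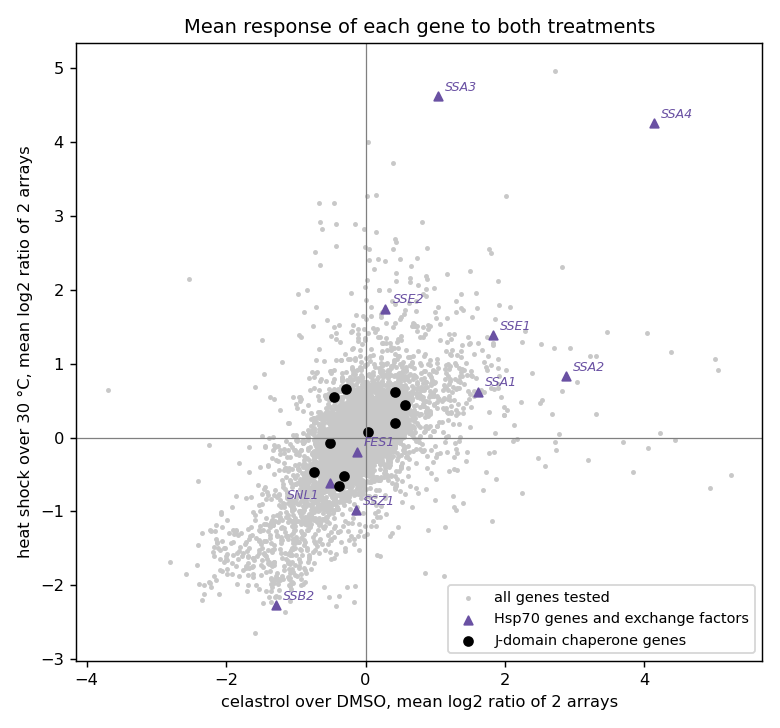
Mean log2 ratio of 2 arrays after celastrol (x axis) and after heat shock (y axis) for all 5403 genes tested (grey), the 10 J-domain chaperone genes (black circles), and the Hsp70 and exchange factor genes (purple triangles, named). The J-domain genes stay between −0.75 and 0.66 on both axes, while SSA4 lies at 4.14 and 4.25.

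Nucleotide exchange factors, which release ADP from Hsp70 so that it opens again, held 1 gene of 4 that rose after celastrol and 2 that rose after heat shock, with 0 falling, beside 3.85% and 4.28% of all genes that rose. SSE1, for an Hsp110, rose under both treatments, by 1.83 ± 0.22 after celastrol (adjusted p = 0.0112) and 1.39 ± 0.05 after heat shock (adjusted p = 0.0180; both SD, n = 2). Its relative SSE2 rose after heat shock (1.74 ± 0.19, adjusted p = 0.0230) and stood at 0.29 ± 0.62 after celastrol (both SD, n = 2). The difference of SSE2 was −1.45 ± 0.36 (SE; adjusted p = 0.182), which was not called. Without heat shock replicate 2 it was −1.59 and was called, with the spread taken from the celastrol arrays alone. That fit called more of all genes for the difference than the main fit did.

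Chaperones and sorting factors that take clients from, or work on aggregates with, J-domain proteins rose in 5 of 8 cases and fell in 1 after celastrol, the sorting factor gene CUR1. After heat shock they rose in 6 of 8 with 0 falling. Of all genes 3.85% rose and 2.68% fell after celastrol, and 4.28% rose and 4.79% fell after heat shock. HSP104, the disaggregase that Hsp70 and its J-domain partners bring to aggregates, rose by 2.01 ± 0.68 after celastrol (adjusted p = 0.0395) and by 3.26 ± 0.70 after heat shock (adjusted p = 0.0133; both SD, n = 2). STI1, for the adaptor between Hsp70 and Hsp90, rose after heat shock (1.92 ± 0.02, adjusted p = 0.0177) and stood at 0.87 ± 0.53 after celastrol (both SD, n = 2), where it was called with quantile normalization, celastrol fitted alone, array weights or without either heat shock array. Each of those settings called more of all genes after celastrol than the main fit did. CUR1, for a sorting factor that binds Sis1, fell after celastrol (−1.13 ± 0.18, adjusted p = 0.0371) and stood at −0.82 ± 0.28 after heat shock (both SD, n = 2). After heat shock it was called only without heat shock replicate 2, with the spread taken from the celastrol arrays alone. More of all genes were called after heat shock by that fit than in the main fit. On its 4 arrays CUR1 was below 0 throughout, at −1.25 and −1.005 after celastrol and at −1.02 and −0.63 after heat shock. HSP82, HSC82, HSP42 and HSP26 made up the rest of the genes that rose, under both treatments. HSC82's heat shock call (adjusted p = 0.0494) was lost under 9 of 13 alternatives and HSP42's under 6. The heat shock calls of HSP82, HSP26, SSA3 and SSA4 were each lost under 3, and that of HSP104 under 4. Those of SSE1 and STI1 were each lost under 5, and that of SSE2 under 6. The celastrol call of HSP42 was lost under 5, and those of HSC82, HSP104, CUR1, SSA1 and SSA3 under 4 each. The celastrol calls of HSP82, HSP26, SSE1, SSA2 and SSA4 were each lost under 2. These lists, like the 10 genes, were chosen with earlier results of these data known, so their counts are descriptions.

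**Figure D4:**
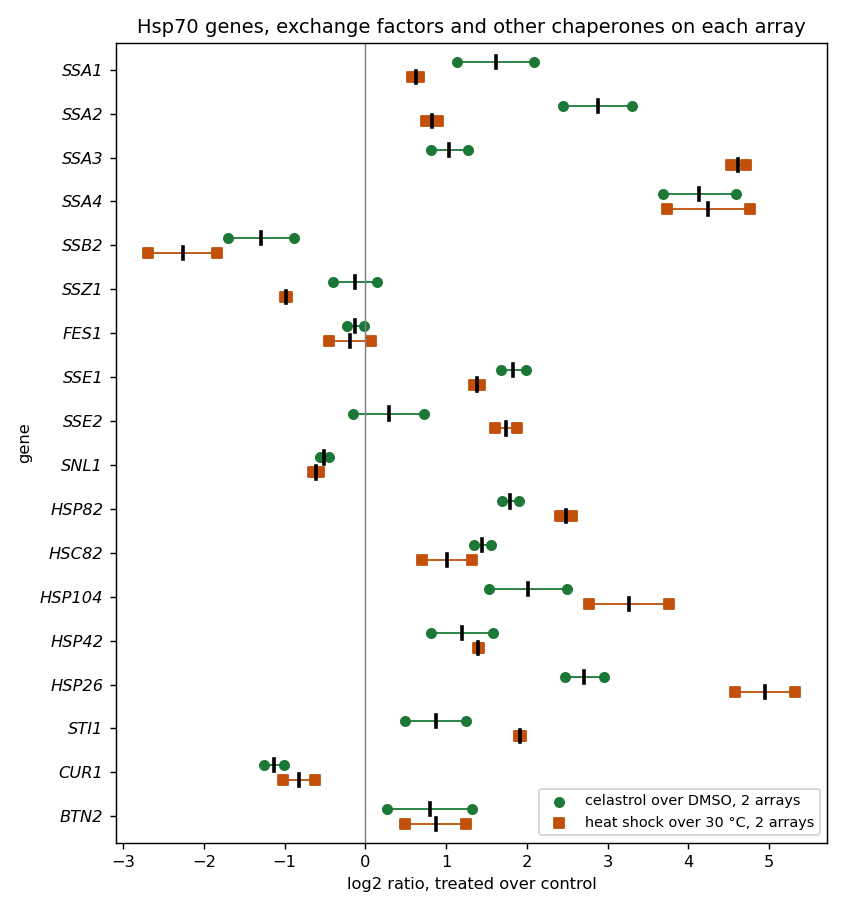
Log2 ratio of treated over control (x axis) of Hsp70 genes, exchange factors, other chaperones and sorting factors (y axis), with 1 point per array, green circles for the 2 celastrol arrays, orange squares for the 2 heat shock arrays, and a black tick at each mean of 2 arrays. SSA3 lies at 0.81 and 1.27 on the celastrol arrays and at 4.53 and 4.71 on the heat shock arrays.

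Genes nearest to 3 of the J-domain genes over the 4 arrays were found by Euclidean distance between log2 ratios. For YDJ1 they were MPC1 (distance 0.183), UBA4 (0.196) and CSC1 (0.197). For SIS1 they were RRI2 (0.136), PRR2 (0.153) and EMP46 (0.183), and for APJ1 CIN4 (0.197), EMA35 (0.236) and AVT2 (0.251). With 4 values a gene these are descriptions, and the distances are of the size of the SD between 2 arrays.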

How the data were processed

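The deposited values are log2 ratios of treated (Cy5) over control (Cy3), 1 per probe and array, per the labels. Per the series' design text, duplicate values of a chip were averaged and scaled to its median. The sources used here name no array software, background correction or spot filter. Base 2 was read from the spacing of values on heat shock replicate 1, where 186 pairs differ by log2 of a small whole-number ratio and 0 by its natural log; for the other 3 arrays it is an assumption. Of 6415 probes, 5619 have 1 annotated gene (all matched to RefSeq R64), 76 several and 720 none. Probes were averaged per gene, and exact zeros (7 and 4 on the celastrol arrays, 44 and 47 on the heat shock arrays) were taken as missing, which kept 74 genes out of the fit.

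For 5403 genes limma 3.58.1 (R 4.3.3; lmFit, eBayes) estimated 1 mean per treatment with a spread shared by the 4 arrays (2 residual and 3.12 prior degrees of freedom); the script was tested on simulated data. P-values were two-sided, adjusted by Benjamini-Hochberg over all genes. The labels do not say whether arrays come from separate cultures, so p-values measure the spread between arrays only. Members, lists and the nearest-gene rule were chosen with earlier results of these data known. All 10 members are named, and of the other lists only genes called in a comparison; SSB1 was named for its likeness to SSB2. Alternatives covered scaling, zeros, left-out arrays, separate fits, a replicate block, robust spread, array weights and a test against a 1.5-fold change. Deviations of same-numbered arrays correlated at −0.31 and no label names a shared batch, so no pairing was used. No coordinates are printed, since no build is named for the array.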

Additional observations from a re-analysis of the deposited data

Results flagged for a closer look

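SIS1 and JJJ1 were picked out because both celastrol arrays lay below 0 and both heat shock arrays above it, with differences of −0.94 and −0.996. Of all genes, 49.6% lay below 0 on both celastrol arrays and 34.2% above 0 on both heat shock arrays. The share of all genes that met both was not computed, so this choice is a description. It cannot exceed 28.9%, the share of all genes with both celastrol arrays below both heat shock arrays. The difference itself was tested with limma and not called for either (adjusted p = 0.167 and 0.341). JJJ1's heat shock replicate 2 lay at 0.06, so its place above 0 there is slight, while SIS1's values nearest to 0 were −0.24 after celastrol and 0.55 after heat shock. SSA3, an Hsp70 gene outside the J-domain family, was picked out by its called difference of −3.58 between celastrol and heat shock (adjusted p = 0.0156).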

How the results depend on the processing

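Over 13 alternatives the J-domain genes gave 380 values, of which 14 passed the threshold that none passed before. In 240 of the 380 the estimate cannot move, since only the test differs; of the other 140, 15 changed sign. Of all genes, quantile normalization called 1128 after celastrol, celastrol fitted alone 1479 and array weights 1243, against 353 (6.53%) in the main fit. Of the 10 genes, quantile normalization called 1 (XDJ1), celastrol fitted alone 2 (XDJ1, ZUO1) and array weights 2 (XDJ1, JJJ3). Leaving out 1 array gave 0 to 3 calls after celastrol, 0 to 3 after heat shock and 0 to 1 for the difference. Each fit without 1 array that called any of the 10 genes also called more of all genes in that comparison than the main fit. Those fits took the spread from the celastrol arrays alone. The cause of the calls under these settings was not tested.

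Signs changed mostly for values near 0, but also for ZUO1 after heat shock (−0.46 over both arrays), ZUO1's difference (−0.28) and SSE2 after celastrol (0.29). With quantile normalization DJP1 was −0.059 after heat shock and 0.14 for the difference, and YDJ1's difference 0.00094. With centred arrays DJP1's difference was 0.067 and SSZ1 after celastrol 0.0099. With 1 array left out, values after celastrol ran from −0.12 to 0.19 (DJP1), −0.41 to 0.14 (SSZ1) and −0.15 to 0.73 (SSE2). After heat shock they ran from −0.0098 to 0.40 (CAJ1), −0.30 to 0.46 (DJP1), −0.22 to 0.056 (JJJ3) and −0.92 to 0.00082 (ZUO1). Differences ran from −0.50 to 0.13 (YDJ1), −0.42 to 0.34 (DJP1), −0.019 to 0.27 (XDJ1), −0.75 to 0.18 (ZUO1), −0.63 to 0.41 (SSA4) and −0.58 to 0.18 (HSP42). Centring moved the median of all genes by 0.14 after celastrol and 0.11 for the difference.

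All 24 calls of Hsp70, exchange factor, other chaperone and sorting factor genes were lost without either celastrol array, where no gene at all was called. With each treatment fitted alone 12 of 23 were lost, all of them heat shock calls, and that fit called 0 of all genes after heat shock. Counts over all genes were 353 after celastrol, 490 after heat shock and 60 for the difference, and ran from 0 to 1502, 0 to 1557 and 0 to 537 over the alternatives. With the replicate block 0 of the 10 genes and 65, 30 and 0 of all genes were called, and 15 of the 24 calls were lost. With crossed numbers, chosen after seeing the data, 0 of the 10 genes and 798, 849 and 50 of all genes were called. The number of arrays, 2 per treatment, limits the precision.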
